A study of Mus musculus with 8 samples.

Results

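Genes of the extracellular matrix were followed in mouse germinal vesicle (GV) oocytes, which are fully grown immature oocytes still arrested before meiotic maturation. The set was taken by gene symbol and holds the numbered collagen and laminin chains, the lysyl hydroxylases Plod1 to Plod3, the metalloproteinase inhibitors Timp1 to Timp4, and Sparc, Dcn, Lum, Fn1, Fbn1, Fbn2, Lgals1 and Sfrp4. It took in 132 of the 45037 probe sets that are not controls, for 66 of 18193 genes with 1 symbol, and no probe set of Fbn1 was among them. Total RNA of GV oocytes kept in milrinone for 48 h of culture (4 samples) and of untreated GV oocytes (4 samples) was hybridised to 1 single-colour Affymetrix array per sample. Milrinone inhibits the oocyte phosphodiesterase that breaks down cAMP and so holds the oocyte at the GV stage. The labels name neither a mouse strain nor an age, and no sample was cultured without milrinone, so drug, culture and elapsed time cannot be told apart. The series title asks about the stability of retrotransposon transcripts, and matrix genes are not named in it.

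Collagens are triple-helical proteins that form fibrils in connective tissue or sheets in basement membranes, and laminins are trimers of an alpha, a beta and a gamma chain that build the basement membrane itself. Lysyl hydroxylases modify collagen chains in the endoplasmic reticulum, and TIMPs inhibit the metalloproteinases that degrade matrix. In the ovary a basement membrane surrounds the granulosa layer of each follicle, and theca and stroma cells outside it make fibrillar collagens, whereas the oocyte is coated by the zona pellucida.

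The deposited tables give a probe set an intensity on some arrays and leave its cell empty on others. Below, a probe set is listed on an array where its cell holds an intensity. Since an empty cell does not bound the signal, no fold is given against a group without values. Intensities of different probe sets depend on their own probes and are compared only within a probe set. The values given for a gene are those of 1 probe set unless a second is named. Untreated 1 stood apart: its correlation with the other arrays had a median of 0.930, and the medians of the rest were 0.966 to 0.980. For Actb, whose control probe sets gauge how complete the labelled RNA is, the 3' over 5' ratio ran from 11.6 to 20.4 on milrinone arrays and from 6.87 to 13.1 on untreated arrays. Of 18 probe sets of oocyte markers such as Zp3 and Gdf9, 17 were listed on each of the 8 arrays and only Sohlh1 had no value. The replicates are not said to come from separate animals, so the p-values rest on the spread among these arrays alone, and that spread may be technical. Equal masses of cRNA were hybridised, so levels are relative to the other RNA of a sample, and fewer cells of a type cannot be told apart from less RNA per cell.

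Fewer matrix probe sets had a value on any milrinone array than on any untreated array. Milrinone arrays 1 to 4 listed 41, 41, 35 and 43 of the 132 probe sets, and untreated arrays 1 to 4 listed 80, 59, 59 and 52. The means were 40.0 ± 3.46 for milrinone and 62.5 ± 12.1 for untreated samples (SD, n = 4 each), and the ranges of the groups did not overlap. As a share this was 30.3% for milrinone and 47.3% for untreated arrays, and of all probe sets 41.9% were listed on milrinone and 46.2% on untreated arrays. Without untreated 1 the untreated mean was 56.7 ± 4.04 (SD, n = 3). On milrinone arrays the share of matrix probe sets with a value was thus below that of all probe sets on each of the 4 arrays, and it was above it on untreated 1 and 3. The intensity of the set, summed over listed probe sets only, was 18676, 18955, 17389 and 19497 on milrinone 1 to 4. It was 64066, 25685, 26071 and 22178 on untreated 1 to 4. An empty cell adds nothing to this sum or to the sums of marker genes below, so a sum also depends on the number listed. A single probe set of Lamb1 made up 7845 to 8115 of it on milrinone arrays and 7323 to 8574 on untreated arrays.

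**Figure D1:**
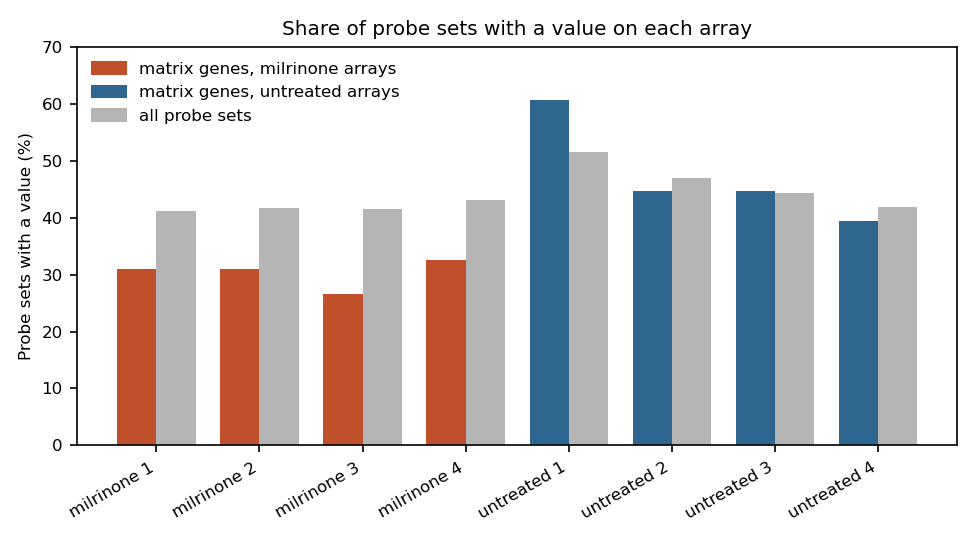
Share of probe sets with a value on each array, in percent, for the 132 probe sets of matrix genes (coloured bars) and for all 45037 probe sets (grey bars). Matrix probe sets reach 26.5% to 32.6% on milrinone arrays and 39.4% to 60.6% on untreated arrays, with the highest share on untreated 1.

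Members differed in which arrays listed them. There were 26 probe sets of 23 genes listed on all 8 arrays (19.7%, against 32.0% of all probe sets) and 43 listed on none. A further 8 probe sets of 7 genes were listed on all 4 untreated arrays and no milrinone array, which is 6.06% of the members, where the same pattern was found in 0.471% of all probe sets. The opposite pattern was found in 0 members and in 0.0333% of all probe sets. With a looser rule, 15 member probe sets of 14 genes (11.4%) were listed on at least 3 untreated and at most 1 milrinone array, against 3.12% of all, and 0 the other way round, against 0.655% of all. Any listing on untreated arrays alone was found for 34 members (25.8%, against 12.0% of all), and listing on milrinone arrays alone for 6 members (4.55%, against 4.55% of all).

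**Figure D2:**
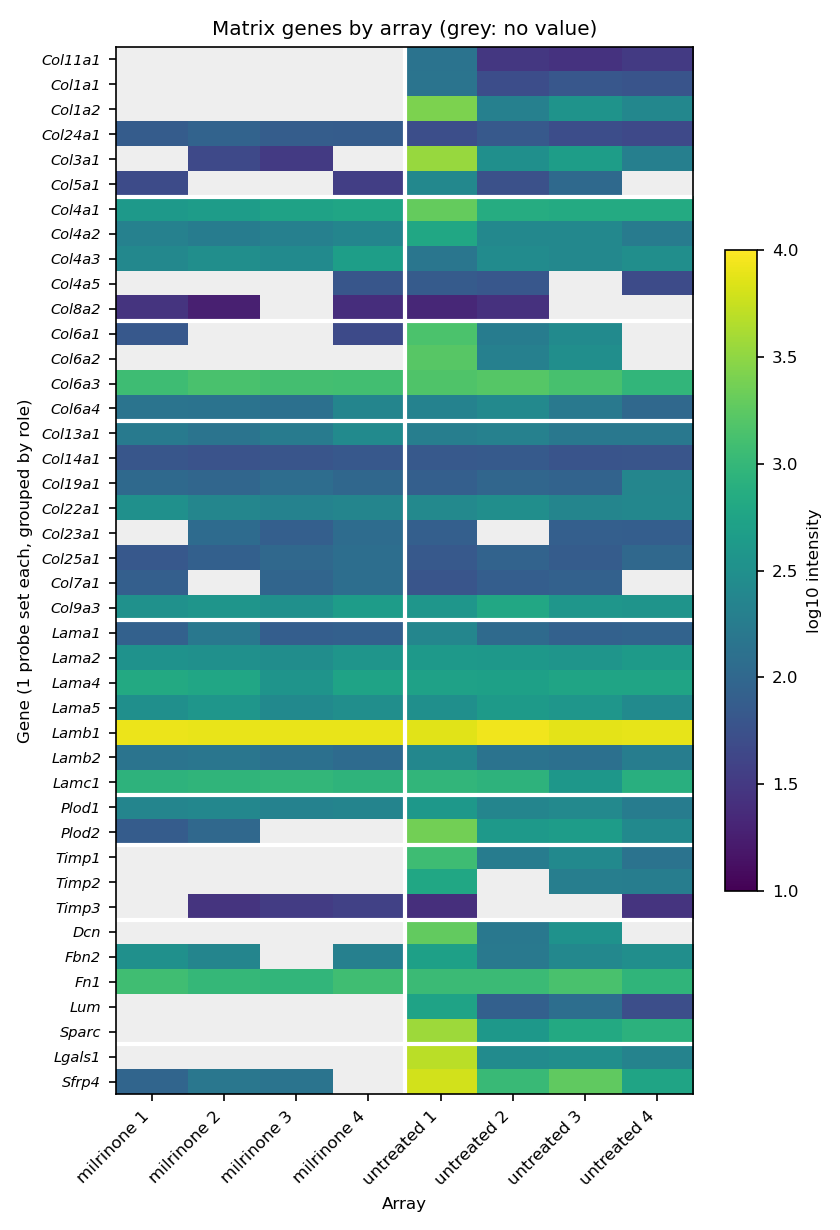
Intensity (log10, colour) of 42 matrix genes, 1 probe set each, on the 4 milrinone arrays (left) and the 4 untreated arrays (right), with grey cells where the table is empty. Rows are grouped by role, in order fibrillar, network, beaded and other collagens, laminins, lysyl hydroxylases, TIMPs, proteoglycans and glycoproteins, and Lgals1 with Sfrp4; grey milrinone cells collect among the fibrillar collagens, Timp1, Dcn, Lum, Sparc and Lgals1, while laminins are filled throughout.

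Fibrillar collagens, the rope-like collagens of connective tissue, had values mainly on untreated arrays. On milrinone arrays 2 to 3 of their 21 probe sets were listed, and on untreated arrays 6 to 13. Col1a2, which encodes the second chain of type I collagen, had no value on any milrinone array, against 2550.3, 205, 343 and 243 on untreated 1 to 4. Its level on untreated 1 was 10.5 times the median of the other untreated arrays. Col1a1, the partner chain of the same trimer, had no value on any milrinone array, against 142, 50.6, 65.3 and 60.6 on untreated 1 to 4. Col3a1, the chain of type III collagen found with type I in soft tissue, had 45.4 on milrinone 2 and 32.4 on milrinone 3, with no value on milrinone 1 and 4, against 3414, 309, 473 and 197 on untreated 1 to 4. Every untreated value of this probe set was above both milrinone values, and untreated 1 was the highest array for all 3 genes. Col11a1, a chain of a minor fibril collagen, had no value on any milrinone array, against 138, 30.7, 27.5 and 32.0 on untreated 1 to 4. Col5a1, a chain of the type V collagen that regulates fibril size, had 47.9 on milrinone 1 and 36.3 on milrinone 4, with no value on milrinone 2 and 3, against 254 on untreated 1, 54.8 on untreated 2 and 106 on untreated 3, with no value on untreated 4. The exception was Col24a1, also a fibrillar collagen, which was listed on all 8 arrays with 74.7, 90.3, 75.7 and 75.1 on milrinone 1 to 4, against 52.9, 68.7, 51.2 and 45.4 on untreated 1 to 4. Its groups did not overlap, and all 4 milrinone values were higher. Further probe sets of these genes were listed on at most 2 untreated arrays and on no milrinone array, among them a second probe set of Col1a2 with a value on untreated 1 and 3, at 696 and 119.

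The promoters of Col1a2 and Col3a1 are shown because both genes had 4 untreated values with untreated 1 far above the rest, and those of Col4a1, Col4a2 and Lamb1 because these genes, described next, were listed on all arrays. Windows of 300 bases, 250 before to 50 after the annotated start, are from RefSeq (GRCm38.p6), which held 49 windows for 45 of the 66 genes. Capitals mark the motif CCAAT, the motif GGGCGG and the motif TATAAA on either strand, so that ATTGG is the first and CCGCCC the second of these read on the opposite strand, and no match of one overlaps a match of another in these windows. Col1a2 lies at chr6:4505368-4505667 on the plus strand, Col3a1 at chr1:45311288-45311587 on the plus strand, Col4a1 at chr8:11312777-11313076 on the minus strand, Col4a2 at chr8:11312555-11312854 on the plus strand and Lamb1 at chr12:31265043-31265342 on the plus strand.
Col1a2: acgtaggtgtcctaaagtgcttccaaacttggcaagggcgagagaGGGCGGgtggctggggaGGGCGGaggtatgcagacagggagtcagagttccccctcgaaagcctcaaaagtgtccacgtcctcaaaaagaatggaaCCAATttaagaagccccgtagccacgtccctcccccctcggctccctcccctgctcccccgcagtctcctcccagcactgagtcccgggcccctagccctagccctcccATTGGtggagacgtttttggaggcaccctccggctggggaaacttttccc
Col3a1: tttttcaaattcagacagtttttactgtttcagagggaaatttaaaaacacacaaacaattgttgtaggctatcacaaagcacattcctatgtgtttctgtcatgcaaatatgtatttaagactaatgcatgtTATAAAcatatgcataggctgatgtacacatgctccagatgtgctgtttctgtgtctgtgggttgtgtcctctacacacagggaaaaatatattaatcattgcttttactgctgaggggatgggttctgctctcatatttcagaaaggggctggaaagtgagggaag
Col4a1: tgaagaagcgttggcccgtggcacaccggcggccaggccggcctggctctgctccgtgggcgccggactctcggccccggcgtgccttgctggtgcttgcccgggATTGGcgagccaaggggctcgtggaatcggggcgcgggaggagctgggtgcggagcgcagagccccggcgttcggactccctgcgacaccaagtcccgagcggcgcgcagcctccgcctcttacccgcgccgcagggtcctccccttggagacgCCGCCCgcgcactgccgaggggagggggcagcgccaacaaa
Col4a2: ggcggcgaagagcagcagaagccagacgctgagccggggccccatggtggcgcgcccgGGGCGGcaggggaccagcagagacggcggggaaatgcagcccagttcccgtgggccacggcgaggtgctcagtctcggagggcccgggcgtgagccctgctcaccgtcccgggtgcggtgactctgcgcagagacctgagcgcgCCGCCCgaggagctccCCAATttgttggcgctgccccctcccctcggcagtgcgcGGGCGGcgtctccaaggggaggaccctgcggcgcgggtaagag
Lamb1: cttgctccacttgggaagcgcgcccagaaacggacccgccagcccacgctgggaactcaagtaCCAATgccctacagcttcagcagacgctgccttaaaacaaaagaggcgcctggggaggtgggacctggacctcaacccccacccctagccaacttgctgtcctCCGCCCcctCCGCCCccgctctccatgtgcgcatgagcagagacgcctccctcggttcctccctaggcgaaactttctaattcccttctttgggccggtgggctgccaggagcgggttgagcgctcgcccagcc
CCAAT was found 2 times in the Col1a2 window, once each in those of Col4a1, Col4a2 and Lamb1, and not in that of Col3a1, which holds the only TATAAA of the 5. Among all 32851 windows, 37.4% hold CCAAT, 35.7% GGGCGG and 13.6% TATAAA, and among the 49 windows of the set 34.7%, 59.2% and 12.2% do. The windows of Col4a1 and Col4a2 share 78 bases, because both genes start from the same stretch and run in opposite directions. These letters are a description of the windows and say nothing of what binds there.

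Network collagens of basement membranes were listed in both groups, with 5 to 7 of 17 probe sets on milrinone arrays and 6 to 12 on untreated arrays. Col4a1, a main chain of type IV collagen, had 421, 457, 529 and 584 on milrinone 1 to 4, against 1959, 719.9, 689 and 677 on untreated 1 to 4. All 4 milrinone values lay below all 4 untreated values, and untreated 1 was 2.84 times the median of the other untreated arrays. The log2 difference, milrinone minus untreated on log2(intensity + 16), was -0.85 (95% interval -1.54 to -0.15, adjusted p = 0.48) in the limma fit across all tested probe sets, of which 0.117% passed an adjusted p of 0.05, and without untreated 1 it was -0.48 (adjusted p = 0.472). Col4a2, its partner chain, had 209.9, 181, 201 and 234 on milrinone 1 to 4, against 617, 250.2, 252 and 178 on untreated 1 to 4. Here the groups overlapped, and untreated 1 was again the highest array. Col4a3, a chain of the type IV collagen of mature basement membranes such as that of the kidney, had 248, 302, 273 and 481 on milrinone 1 to 4, against 152, 282, 252 and 304 on untreated 1 to 4, with the lowest value on untreated 1. Its log2 difference was 0.37 and that of a second probe set of Col4a3 was -0.13, and neither passed the test. Col4a5, which joins Col4a3 in that trimer, had 62.8 on milrinone 4, with no value on milrinone 1, 2 and 3, against 72.8 on untreated 1, 65.4 on untreated 2 and 48.1 on untreated 4, with no value on untreated 3. Another probe set of Col4a5 was listed on all 4 untreated arrays, at 95.8, 37.3, 32.6 and 20.5, and on milrinone 3 and 4, at 12.4 and 21.4. Its groups overlapped, and untreated 1 was the highest array. Col8a2, a short-chain network collagen, had 28.0 on milrinone 1, 18.5 on milrinone 2 and 24.7 on milrinone 4, with no value on milrinone 3, against 21.8 on untreated 1 and 26.8 on untreated 2, with no value on untreated 3 and 4.

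Type VI collagen, which forms beaded filaments around cells, was split between its chains. Col6a1 had 67.7 on milrinone 1 and 47.1 on milrinone 4, with no value on milrinone 2 and 3, against 1418 on untreated 1, 182 on untreated 2 and 273 on untreated 3, with no value on untreated 4. Col6a2 had no value on any milrinone array, against 1662 on untreated 1, 201 on untreated 2 and 306 on untreated 3, with no value on untreated 4. Both were empty on untreated 4, and both had their highest value on untreated 1. Col6a3, in contrast, had 1181, 1362, 1279 and 1244 on milrinone 1 to 4, against 1479.8, 1602, 1358 and 932 on untreated 1 to 4, with overlapping groups and a log2 difference of -0.06 (95% interval -0.43 to 0.32, adjusted p = 0.918). The same held for Col6a4, with 143, 139, 127 and 234 on milrinone 1 to 4, against 213, 255, 162 and 104 on untreated 1 to 4. Untreated 1 was 6.22 and 6.55 times the median of the other listed untreated arrays for Col6a1 and Col6a2, but 1.09 times for Col6a3, where untreated 2 was the highest.

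The other collagens, which include transmembrane forms and those that sit on fibril surfaces, held the largest number of genes, 17 with 37 probe sets, of which 17 probe sets were listed on no array. Milrinone arrays listed 8 to 13 and untreated arrays 9 to 15 of them, and none was listed on all untreated and no milrinone arrays. Col9a3, a chain of a collagen on the surface of cartilage fibrils, had 326, 371, 319 and 453 on milrinone 1 to 4, against 374, 624, 379 and 354 on untreated 1 to 4. Col22a1 had 321, 235, 215 and 230.4 on milrinone 1 to 4, against 258, 305, 231 and 245 on untreated 1 to 4. Col13a1, a transmembrane collagen, had 173, 142, 177 and 270.1 on milrinone 1 to 4, against 191, 207, 159.9 and 161 on untreated 1 to 4. For these 3 genes the groups overlapped. Col19a1 had 105, 98.6, 118 and 101 on milrinone 1 to 4, against 82.0, 98.3, 89.7 and 237 on untreated 1 to 4, where untreated 4 was far above the other untreated arrays. Col25a1, a transmembrane collagen of neurons, had 67.6, 82.5, 102 and 123 on milrinone 1 to 4, against 69.1, 91.1, 73.9 and 102 on untreated 1 to 4. Col14a1, a collagen that associates with fibrils, had 63.8, 59.2, 61.1 and 67.8 on milrinone 1 to 4, against 68.4, 71.2, 60.7 and 61.3 on untreated 1 to 4. These again overlapped between the groups. Col7a1, the collagen of anchoring fibrils in skin, had 81.4 on milrinone 1, 95.5 on milrinone 3 and 119.8 on milrinone 4, with no value on milrinone 2, against 62.2 on untreated 1, 79.9 on untreated 2 and 85.9 on untreated 3, with no value on untreated 4. Col23a1, another transmembrane collagen, had 113 on milrinone 2, 80.4 on milrinone 3 and 114 on milrinone 4, with no value on milrinone 1, against 80.9 on untreated 1, 81.3 on untreated 3 and 78.4 on untreated 4, with no value on untreated 2. Both overlapped between the groups as well. No log2 difference of this group passed the test, and those of the named probe sets ran from -0.20 for Col9a3 to 0.32 for Col7a1, in whose fit milrinone 2 and untreated 4 are missing. A second tested probe set of Col9a3 differed by 0.21, so the probe sets of this gene disagree in sign.

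Laminin chains were listed in similar numbers in both groups, with 10 to 12 of 19 probe sets on milrinone and 11 to 12 on untreated arrays, and 10 probe sets of 7 genes were listed on all 8. Lamb1, the beta chain of the most widespread laminins, had 8115, 7845, 7870.1 and 7882 on milrinone 1 to 4, against 7323, 8574, 7616 and 7832 on untreated 1 to 4. Its log2 difference was 0.02 (95% interval -0.13 to 0.17, adjusted p = 0.931), the narrowest interval of the tested members, and it was -0.04 with quantile normalization and -0.01 with centring on the median. Its probe set carries a suffix used where probes can match several transcripts, and 2 further probe sets of Lamb1 differed by -0.0036 and -0.39. Lamc1, the gamma chain that pairs with it, had 873, 919, 964 and 899 on milrinone 1 to 4, against 935, 866, 391 and 784 on untreated 1 to 4. Untreated 3 was the lowest array, and the other 7 lay close together. The alpha chains Lama2, of muscle and nerve laminins, and Lama4, of vessel laminins, were both listed on all arrays. Lama2 had 343, 321, 295 and 363 on milrinone 1 to 4, against 425, 400.0, 363 and 428 on untreated 1 to 4, so that the highest milrinone value of 362.7 lay just below the lowest untreated value of 363.0, and its log2 difference was -0.28 (95% interval -0.59 to 0.03, adjusted p = 0.531). Lama4 had 663, 598, 359.7 and 549 on milrinone 1 to 4, against 526, 511, 559 and 561 on untreated 1 to 4. Lama5, the alpha chain of many mature epithelia, had 309.8, 373, 265 and 305 on milrinone 1 to 4, against 309, 436, 373 and 274 on untreated 1 to 4. The groups of Lama4 and Lama5 overlapped. Lama1, the alpha chain of embryonic basement membranes, had 86.2, 159, 78.6 and 82.4 on milrinone 1 to 4, against 235, 109, 84.9 and 89.3 on untreated 1 to 4, with untreated 1 the highest of all and milrinone 2 apart from the other milrinone arrays. Lamb2 had 142, 149, 128 and 112 on milrinone 1 to 4, against 242, 139, 127 and 188 on untreated 1 to 4, again highest on untreated 1. Of the further laminin probe sets with a value, 2 were listed mainly on untreated arrays and 2 on milrinone arrays alone. The second of Lamc1 had no value on any milrinone array, against 88.5 on untreated 1, 96.0 on untreated 2 and 193 on untreated 4, with no value on untreated 3. The second of Lama4 had 57.6 on milrinone 1, with no value on milrinone 2, 3 and 4, against 64.4, 49.6, 51.9 and 93.3 on untreated 1 to 4. So 2 of the 19 were listed on at least 3 untreated and at most 1 milrinone array, and 0 the other way round. A single probe set of Lamb3 was listed on milrinone 2 only, as was another probe set of Lamb1, at 85.5. Lama3 and Lamc3 were listed nowhere. The median log2 difference of the 10 tested laminin probe sets was -0.10, in a range from -0.39 to 0.36.

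The lysyl hydroxylases differed among themselves. Plod2, which hydroxylates the collagen telopeptides that form stable cross-links, had 73.9 on milrinone 1 and 103 on milrinone 2, with no value on milrinone 3 and 4, against 2316, 406, 458 and 268 on untreated 1 to 4. Its second probe set had 53.7 on milrinone 1, 67.2 on milrinone 2 and 32.3 on milrinone 4, with no value on milrinone 3, against 2316, 397, 405 and 640.4 on untreated 1 to 4. Both probe sets were lower on every milrinone array with a value than on any untreated array. The second had enough values for the test, in which milrinone 3 is missing, with a log2 difference of -3.46 (95% interval -4.68 to -2.23, adjusted p = 0.0666), and without untreated 1 it was -2.89 (adjusted p = 0.00319), past the threshold, where 0.419% of all probe sets passed. Plod1, which acts on the helical part of the chain, had 235, 242, 214 and 225 on milrinone 1 to 4, against 394, 233, 257 and 184 on untreated 1 to 4, with overlapping groups. Plod3 was listed on untreated 1 only, at 259.

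The metalloproteinase inhibitors were listed mainly on untreated arrays, 3 to 8 of their 13 probe sets there and 2 on each milrinone array. Timp1, a secreted inhibitor induced in the ovulating follicle, had no value on any milrinone array, against 1172, 179.9, 265 and 139 on untreated 1 to 4. Untreated 1 was 6.52 times the median of the other untreated arrays. Timp2, which also takes part in activating Mmp2, had no value on any milrinone array, against 619.9 on untreated 1, 194 on untreated 3 and 189 on untreated 4, with no value on untreated 2. A different probe set of Timp2 was listed on all 8 arrays, with 131, 119, 105 and 114 on milrinone 1 to 4, against 423, 135, 266 and 127 on untreated 1 to 4, so the probe sets of this gene disagree on its listing in milrinone samples, and a further one was listed on milrinone 1 alone. Its log2 difference was -0.78 (95% interval -1.49 to -0.07, adjusted p = 0.495), and it was -0.46 (adjusted p = 0.64) without untreated 1. Timp3, the inhibitor bound to matrix, had 28.2 on milrinone 2, 34.4 on milrinone 3 and 38.0 on milrinone 4, with no value on milrinone 1, against 25.3 on untreated 1 and 28.4 on untreated 4, with no value on untreated 2 and 3, and a different probe set was listed on untreated 1 and 2 alone, at 152 and 59.0.

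Of the proteoglycans and glycoproteins, Sparc, Dcn and Lum were listed mainly on untreated arrays, and Fn1 differed between its probe sets. Sparc, a calcium-binding glycoprotein that binds collagen, had no value on any milrinone array, against 3651, 393, 664 and 836 on untreated 1 to 4. Its second probe set was listed on milrinone 2 and 4, at 45.6 and 27.9, and on all untreated arrays, at 1847, 288, 639 and 230.4. The small leucine-rich proteoglycan gene Dcn, whose product decorin coats collagen fibrils, had no value on any milrinone array, against 1927 on untreated 1, 159.9 on untreated 2 and 335 on untreated 3, with no value on untreated 4. Lum, which encodes the related lumican, had no value on any milrinone array, against 553, 83.2, 123 and 52.4 on untreated 1 to 4. In each of these 3 genes untreated 1 was several times above the other untreated arrays. Fn1, which encodes the cell-adhesive glycoprotein fibronectin, had 1212, 1007, 945 and 1188 on milrinone 1 to 4, against 1097, 1098, 1385 and 914 on untreated 1 to 4, with overlapping groups and a log2 difference of -0.04 (95% interval -0.38 to 0.31, adjusted p = 0.941). Its other listed probe set had no value on any milrinone array, against 11.5 on untreated 1, 14.4 on untreated 2 and 20.1 on untreated 4, with no value on untreated 3. Fbn2, a fibrillin of developing microfibrils, had 320.4 on milrinone 1, 234 on milrinone 2 and 200.1 on milrinone 4, with no value on milrinone 3, against 505, 164, 254 and 303 on untreated 1 to 4. The groups of Fbn2 overlapped as well.

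Lgals1 and Sfrp4 encode secreted proteins that are not structural parts of the matrix. Lgals1, which encodes the sugar-binding protein galectin-1, had no value on any milrinone array, against 4895, 278, 305 and 219 on untreated 1 to 4. Its level on untreated 1 was 17.6 times the median of the other untreated arrays, and 18.3 times in its second probe set, which was likewise empty on all milrinone arrays. Sfrp4, a secreted inhibitor of Wnt signalling made by granulosa and luteal cells, had 96.1 on milrinone 1, 154 on milrinone 2 and 143 on milrinone 3, with no value on milrinone 4, against 6282, 1080.2, 1834 and 560.3 on untreated 1 to 4. The lowest untreated value was above all milrinone values. Its log2 difference, with milrinone 4 missing from the fit, was -3.51 (95% interval -4.98 to -2.04, adjusted p = 0.146), which misses the threshold, and without untreated 1 it was -2.86 (adjusted p = 0.0245), which passes it.

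**Figure D3:**
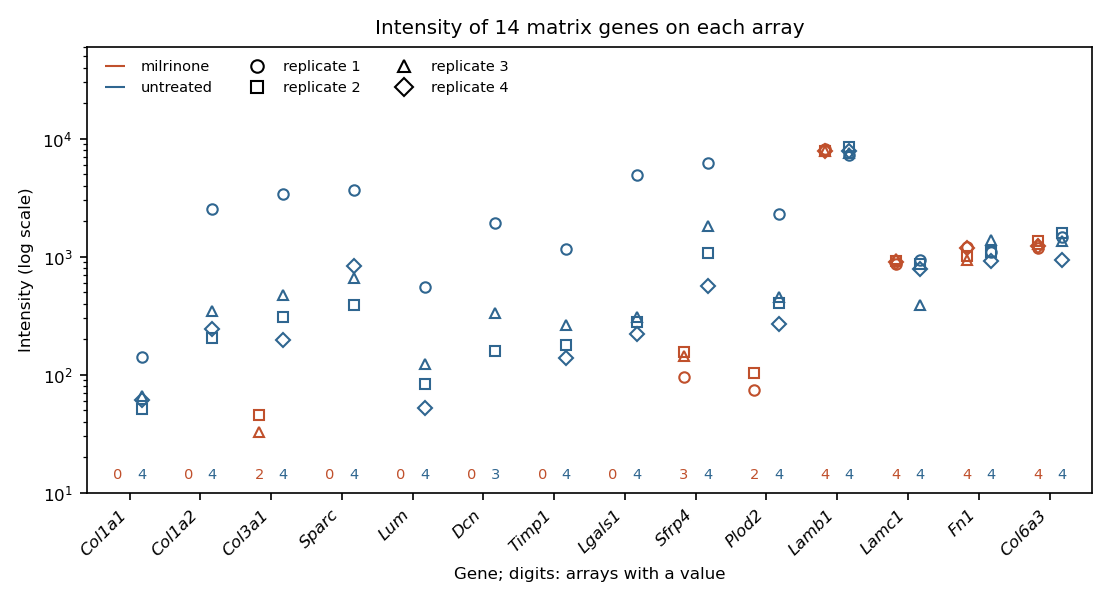
Intensity (log axis) of 14 matrix genes, 1 probe set each, on milrinone (orange, left of each pair) and untreated arrays (blue, right), with a symbol per replicate and the number of arrays with a value at the bottom. For the genes from Col1a1 to Plod2 the circle of untreated 1 lies above the other untreated arrays and milrinone values are absent or low, whereas Lamb1, Lamc1, Fn1 and Col6a3 have 4 values in both groups at overlapping levels.

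The 33 member probe sets listed on at least 3 arrays of each group, for 27 genes, were tested in the fit over 16288 probe sets, and 0 passed an adjusted p of 0.05 (limma), where 0.117% of all tested probe sets did. Members that passed this filter could not include those empty on the milrinone arrays. At an unadjusted p under 0.05 there were 5 of the 33, with Sfrp4, Plod2, Col4a1 and Timp2 lower in milrinone and Col24a1 higher, against 9.63% of all tested probe sets. Groups did not overlap for 4 that were lower (Sfrp4, Plod2, Col4a1 and Lama2), against 2.74% of all, and for 1 that was higher (Col24a1), against 5.06%. In Col24a1 the log2 difference was 0.44 (95% interval 0.12 to 0.75, adjusted p = 0.46). The median log2 difference was -0.11 over the members and 0.06 over all tested probe sets, and 24 of 33 members lay below 0, against 38.0% of all. With quantile normalization the median became -0.13 over all tested probe sets and -0.34 over the members. Without untreated 1, Sfrp4 and Plod2 passed and no other member did. Array weights in the fit gave the same 2 genes, where 0.571% of all passed, and leaving out untreated 4 gave Sfrp4 alone, where 0.138% of all passed. The other 31 tested members had adjusted p from 0.460 to 0.994.

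**Figure D4:**
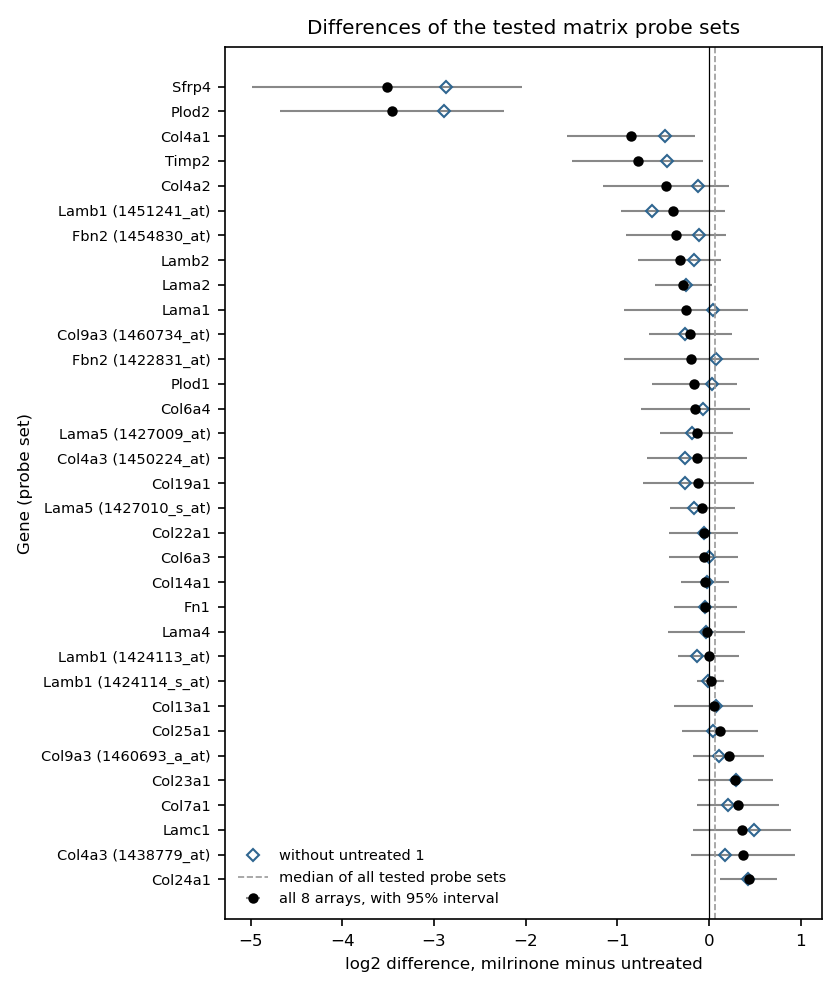
Log2 difference, milrinone minus untreated, of the 33 tested probe sets of matrix genes (points, with 95% intervals from limma) and the same without untreated 1 (open diamonds). Sfrp4 and Plod2 lie at -3.51 and -3.46, the rest between -0.85 and 0.44, and the dashed line at 0.06 is the median of all tested probe sets.

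The place of untreated 1 among the untreated arrays was measured over the 43 members listed on all 4 untreated arrays. Untreated 1 was the highest of them for 23 (53.5%), against 23.8% of the 15931 probe sets of the whole array with 4 untreated values. The median ratio of untreated 1 to the median of the other 3 was 1.69 for the members and 0.901 for all. It was 6.58 for the 8 members listed on all untreated and no milrinone arrays, against 3.22 for the 212 such probe sets of the whole array, and 1.06 for the 26 members listed on all 8 arrays, against 0.884 for all such probe sets. The 8 members are themselves among the 212. Without untreated 1 the number of members listed on all remaining untreated and no milrinone arrays was also 8.

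There were 24 genes without a probe set listed on 3 arrays of either group. Of these, 13 had no value anywhere: Col10a1, Col11a2, Col17a1, Col20a1, Col26a1, Col27a1, Col2a1, Col4a6, Col5a3, Col6a5, Col9a2, Lama3 and Lamc3. Among them are Col2a1, Col9a2 and Col11a2, chains of cartilage fibrils, and Col17a1, a collagen of skin hemidesmosomes. Col12a1, Col18a1, Plod3 and Timp4 were listed on untreated 1 alone. Col16a1 was listed on untreated 2 and 3, and Col9a1 on milrinone 1 and 4. Col5a2 and Col4a4 were listed on 3 untreated arrays and 1 milrinone array when their probe sets are combined, Col15a1 and Col8a1 on untreated 1 and milrinone 1, and Lamb3 on milrinone 2.

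Other genes of matrix biology were taken from lists by function, and none of their tested probe sets passed (limma). Collagen processing had 33 probe sets of 20 genes, of which 12 to 15 were listed on milrinone and 17 to 24 on untreated arrays. Of 12 tested probe sets, 0 passed and 3 had an unadjusted p under 0.05, all lower in milrinone. The share over all tested probe sets was 9.63% in either direction. The genes named from these lists are described by the probe set whose listing differed most between the groups, and their other probe sets are given beside it. For Pcolce, which speeds the removal of the procollagen end, this probe set had no value on any milrinone array, against 3677, 336, 562 and 169.7 on untreated 1 to 4. The other Pcolce probe set had 64.1 on milrinone 2, with no value on milrinone 1, 3 and 4, against 1235, 130.2, 154 and 101 on untreated 1 to 4. Both were highest on untreated 1, with values on all untreated arrays and on at most 1 milrinone array. For Serpinh1, a chaperone specific for collagen, the probe set had no value on any milrinone array, against 1519.7 on untreated 1, 184 on untreated 2 and 198 on untreated 3, with no value on untreated 4. The other Serpinh1 probe set had 44.6 on milrinone 1 and 29.8 on milrinone 4, with no value on milrinone 2 and 3, against 905, 123, 163 and 112 on untreated 1 to 4. Both genes were highest on untreated 1, as Col1a2 and Col3a1 were. Colgalt1, a collagen galactosyltransferase, had 94.4 on milrinone 4, with no value on milrinone 1, 2 and 3, against 397, 96.9, 191 and 98.7 on untreated 1 to 4, and its other probe set was listed on untreated 1 alone. The list of other interstitial matrix genes had 13 to 18 of 69 probe sets listed on milrinone and 22 to 47 on untreated arrays, with 0 of 11 tested passing and 5 at an unadjusted p under 0.05 (against 9.63% of all tested probe sets), of which 3 were higher and 2 lower in milrinone. Mgp, an inhibitor of calcification, had no value on any milrinone array, against 1685, 140.1, 267 and 111 on untreated 1 to 4. A probe set of Fbln1 had no value on any milrinone array, against 913, 111, 125 and 105 on untreated 1 to 4, while another was listed on milrinone 2 and untreated 3, at 158.5 and 168.6, and the last on untreated 1 alone. The probe sets of Ogn were listed on no milrinone array, 1 of them on untreated 1 to 3 and the other on untreated 1 and 4. The list of other basement membrane genes had 5 to 7 of 25 probe sets listed on milrinone and 8 to 13 on untreated arrays, and 0 of 5 tested passed, with 0 at an unadjusted p under 0.05. Probe sets of Egfl7, Smoc2 and Agrn were listed on 4, 3 and 2 untreated arrays and on no milrinone array, but the genes had others. A different probe set of Smoc2 was listed on all 8 arrays, with 934, 969.9, 908 and 1144 on milrinone 1 to 4, against 1600.0, 1297, 1243 and 918 on untreated 1 to 4, and its groups overlapped. A different probe set of Egfl7 was listed on 3 milrinone and 3 untreated arrays, and another 2 on 2 untreated arrays each.

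Matrix receptors and proteases differed less in listing. Receptors such as integrins had 31 to 36 of 77 probe sets listed on milrinone and 34 to 48 on untreated arrays. Of 30 tested, 0 passed and 3 had an unadjusted p under 0.05, all lower in milrinone, against 9.63% of all tested probe sets in either direction. For Ddr2, a receptor for fibrillar collagen, a probe set had 29.9 on milrinone 2, with no value on milrinone 1, 3 and 4, against 205, 64.4, 64.3 and 61.3 on untreated 1 to 4. The other Ddr2 probe set had 132 on milrinone 2 and 118 on milrinone 3, with no value on milrinone 1 and 4, against 175 on untreated 1, with no value on untreated 2, 3 and 4, so the probe sets of this gene disagree. For Itgb5 and Sdc2 the probe sets that differed most were listed on 1 milrinone and 3 untreated arrays and on 0 and 2, but 3 other probe sets of Itgb5 and 1 other of Sdc2 were listed on all 8 arrays. Proteases had 11 to 14 of 40 probe sets listed on milrinone and 12 to 16 on untreated arrays. Of 9 tested, 0 passed and 1 had an unadjusted p under 0.05, higher in milrinone, against 9.63% of all tested probe sets. Adamts1, a protease that cleaves versican in the ovulating follicle, had no value on any milrinone array, against 263 on untreated 1, 89.2 on untreated 2 and 84.8 on untreated 4, with no value on untreated 3. A probe set each of Mmp23 and Adamts5 was listed on 2 milrinone and 4 untreated arrays. With their other probe sets, Mmp23 was listed on all 8 arrays, and Adamts5 on 3 milrinone and 4 untreated arrays.

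Markers of other ovarian cells were counted on the same arrays. Most lists had fewer probe sets listed on milrinone than on untreated arrays, but the stroma list did not on untreated 4. The part of these cells in the result was not tested. Granulosa and cumulus markers had 9 to 15 of 34 probe sets listed on milrinone and 21 to 26 on untreated arrays. Their intensity, summed over listed probe sets only, was 2588 to 3494 on milrinone arrays, 64047 on untreated 1 and between 16962 and 21516 on untreated 2 to 4. Amhr2, Fst and Npr2 had no value on milrinone arrays and were listed on all 4 untreated arrays. Other markers of this list differed from them. Nr5a2 was listed on all 8 arrays by several of its probe sets, and the groups overlapped in its brightest and in another of these. In a further one they did not, with 294 to 438 on milrinone and 653 to 4003 on untreated arrays. Kitl was listed on 3 milrinone and 4 untreated arrays, with overlapping groups. Amh and Gatm were empty on all 8 arrays. Of 10 tested granulosa and cumulus probe sets, 4 fell and 0 rose at an adjusted p of 0.05 (limma), where 0.117% of all tested probe sets passed. Theca and steroidogenic markers had 1 to 2 of 13 listed on milrinone and 5 to 10 on untreated arrays. Their sums were 181 to 435 on milrinone arrays, 36144 on untreated 1 and 3513 to 7203 on the others. Cyp17a1, Nr5a1, Ptch1 and Star had no milrinone value, and Hsd3b1 had 224 and 165 on milrinone 2 and 3. A probe set of Cyp11a1 was listed on all 4 milrinone and 3 untreated arrays, with overlapping groups. It was the only one of this list that was tested, with a log2 difference of 0.29. Another probe set of Cyp11a1 was listed on all 4 untreated arrays and no milrinone array. Stroma and fibroblast markers had 5 to 7 of 34 listed on milrinone arrays and 21, 15, 16 and 4 on untreated 1 to 4. Their sum was 1175 to 1526 on milrinone arrays and 16879, 2262, 2677 and 1086 on untreated 1 to 4. On untreated 4 both the number and the sum were below the milrinone range. Of the matrix genes, Dcn, Col5a1, Col6a1 and Col6a2 were empty on untreated 4. Col1a1, Col1a2, Col3a1, Lum, Timp1, Lgals1 and Sparc had values there. For Col3a1, Lum, Timp1 and Lgals1 these were the lowest untreated values, at 197, 52.4, 139 and 219. The second Lgals1 probe set was lowest on untreated 3 instead. Col1a1 at 60.6, Col1a2 at 243 and Sparc at 836 were not the lowest. The second Sparc probe set was lowest on untreated 4, at 230.4, and a second Col1a2 probe set was empty there. The markers of the stroma list were not alike. Acta2, Dpt, Pdgfra, S100a6, Tagln, Tcf21 and Thy1 had no value on milrinone arrays or on untreated 4, and Vim was listed on all untreated arrays and, with 1 of its 3 probe sets, on milrinone 2. Myh11 was listed on all 8 arrays, with 724, 984, 892 and 853 on milrinone 1 to 4, against 696, 951, 817 and 826 on untreated 1 to 4. Cnn1 had 346, 321, 224 and 237 on milrinone 1 to 4, against 259.9 on untreated 1 and 332 on untreated 2, with no value on untreated 3 and 4. These 2 smooth muscle genes made up most of the stroma sum on each milrinone array, and Des was listed on 2 milrinone arrays and 1 untreated array. Surface epithelium markers had 2 to 4 of 14 listed on milrinone and 4 to 11 on untreated arrays. Their sums were 136 to 543 and 656 to 2051. Krt7, Krt18 and Krt19 were listed on untreated 1 alone, and Msln on no array. A probe set of Lhx9 was listed on 3 milrinone arrays and 1 untreated array, and others on untreated arrays alone. Wt1 was listed on 2 arrays of each group. The brightest probe set of Upk3b was listed on 3 milrinone and 4 untreated arrays, with overlapping groups. Endothelial markers had 2 to 3 of 12 listed on milrinone and 4 to 8 on untreated arrays. Their sums were 522 to 703 and 779 to 1280. Kdr and Tek were listed on all 8 arrays with overlapping groups. Cd34, Cdh5, Eng and Esam had no milrinone value, and Pecam1 and Tie1 were empty on all 8 arrays. Blood and macrophage markers had 3 to 4 of 14 listed on milrinone and 5 to 7 on untreated arrays, with sums of 173 to 362 and 423 to 1597, and untreated 3 had the highest sum. Oocyte markers, by comparison, summed to 163486 to 175913 on milrinone and 160114 to 188577 on untreated arrays.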

How the data were processed

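The deposited tables hold 1 intensity per probe set and array, with empty cells, for 4 milrinone and 4 untreated samples grouped by the labels. How the authors scaled the arrays, with which software, and by which rule cells were emptied is not given in the sources used here. Array intensities have no sequencing depth, and the number of arrays limits the precision. Per the labels' protocols, 15 µg of biotinylated cRNA went on each array.

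Probe sets were named through GEO's platform annotation and checked against current symbols, which changed 0 of 132. The members and gene lists were chosen with earlier results of these data known. The deposited intensity was taken as log2(intensity + 16), and probe sets listed on at least 3 arrays of each group went into a two-sided test across all 16288 (limma 3.58.1 under R 4.3.3, eBayes with a trend, Benjamini-Hochberg). The script was tested on simulated data. A matrix gene was described by its probe set with the highest mean among those listed on at least 3 arrays of a group. Up to 3 genes of each other list were named, by the probe set whose number of listed arrays differed most between the groups. Same-numbered samples did not deviate together, with correlations from -0.266 to 0.033, so the numbers were not treated as pairs. Alternatives were other pseudocounts, filters and normalizations, array weights, a replicate block and leaving out each array.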

Additional observations from a re-analysis of the deposited data

Results flagged for a closer look

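The groups of 4 values examined were intensities as log2(intensity + 16) and the numbers of matrix probe sets and genes listed per array. Of 57 such groups, 8 had an array whose gap to its nearest neighbour took up more of the group's range than Dixon's critical value for 4 samples. Chance would give about 1 in 20, or 2.85. Untreated 1 was the highest array in 3 of them, with gaps of 0.922 of the range for Col11a1, 0.943 for Col4a1 and 0.897 for Lgals1. Milrinone 2 was the highest for Col24a1 (0.935) and Lama1 (0.875), and milrinone 1 for Lamb1 (0.861). Untreated 4 was the highest for Col19a1 (0.838), and untreated 2 for Col9a3 (0.881).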

How the results depend on the processing

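The number of probe sets past the limma test was 19 and became 12 when a value was required on all 8 arrays, 93 with array weights and 8 to 69 when 1 array was left out, with the lowest count without milrinone 3 and the highest without untreated 1. Members past the test numbered 2 with array weights and 0 to 2 with 1 array left out. The members' median log2 difference became -0.34 with quantile normalization, where 28 of 33 lay below 0, against 74.6% of all, and ran from -0.15 to -0.021 with 1 array left out. The adjusted p over the alternatives ran from 0.0020 to 0.595 for Sfrp4 and from 0.0032 to 0.315 for Plod2. The difference in listed members, -22.5 in the main count, was -11.5 by genes and -26.0 to -16.7 with 1 array left out, and members listed on all untreated and no milrinone arrays numbered 8 to 10. The replicate block gave 13 calls, 0 of them members, and a median of -0.11, but samples share only a number.

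Signs turned for members near 0. With array weights the difference was 0.081 for Fbn2, 0.080 for Col19a1 and -0.0027 for Lamb1. Lamb1 was at -0.040 with quantile normalization and -0.010 with median centring, and quantile normalization put Col13a1 at -0.20, Col25a1 at -0.10 and a second probe set of Col9a3 at -0.026. With 1 array left out the ranges were -0.46 to 0.046 for Lama1, -0.44 to 0.075 for Fbn2, -0.31 to 0.035 for Plod1, -0.37 to 0.020 for Col6a4, -0.28 to 0.059 for a second probe set of Col4a3, -0.26 to 0.20 for Col19a1, -0.18 to 0.019 for Col22a1, -0.22 to 0.037 for Col6a3, -0.13 to 0.066 for Fn1, -0.13 to 0.15 for Lama4, -0.13 to 0.065 and -0.013 to 0.063 for 2 probe sets of Lamb1, -0.12 to 0.17 for Col13a1 and -0.00088 to 0.24 for Col25a1. The causes were not tested. An empty cell gives no level, so the fit covers only members listed in both groups.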
